A study of Mus musculus with 7 samples.

Results

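The receptors through which neurons respond to glutamate and to γ-aminobutyric acid (GABA) were examined as a family in the hypothalamus of Bgn knockout mice. Members were all probes of an Illumina bead array whose platform gene symbol names a subunit of an ionotropic or metabotropic glutamate receptor (Gria, Grik, Grin, Grid, Grm) or of a GABA-A or GABA-B receptor (Gabra, Gabrb, Gabrg, Gabrr, Gabrd, Gabre, Gabrq, Gabbr). This gave 46 probes for 35 gene symbols, of 25697 probes on the array. Of these, 45 probes for 34 genes encode receptor subunits, and 1 probe belongs to Grid2ip, a scaffold protein of synapses that is no receptor subunit and shares only the start of its symbol. The treated samples came from 5 male Bgn knockout mice of C57BL/6 background (DHA replicates 1 to 5), whose chow for some 6 weeks held 1.2% of DHA capsule oil (docosahexaenoic acid, an omega-3 fatty acid of brain membranes) together with 0.5% flaxseed oil. The untreated samples came from 2 male Bgn knockout mice of the same background on chow (replicates 1 and 3), after the submitters had set aside 1 further array as an outlier. All mice were 13 weeks old at dissection and all carried the knockout of biglycan, so no wild-type level is known here. The labels do not say how the gene was deleted. The effects of DHA, of the flaxseed oil and of extra dietary fat cannot be told apart. No label names the animal, so if samples were not separate mice the p-values cover only the spread between these samples.

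Glutamate is the main excitatory transmitter of the brain. AMPA, kainate and NMDA receptors are tetrameric cation channels that carry the fast excitatory current, and the metabotropic receptors act more slowly through G proteins. GABA is the main inhibitory transmitter and the most widespread transmitter of hypothalamic neurons. GABA-A receptors are pentameric chloride channels, most often built of alpha, beta and gamma subunits, in which delta or epsilon can take the place of gamma and change the channel's response to drugs. GABA-B receptors are obligate dimers of Gabbr1 and Gabbr2 that couple to G proteins.

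The arrays were similar to one another, with Pearson's r between 0.984 and 0.991 across tested probes, and their number, 5 against 2, limits the precision. The DHA arrays detected 14251 to 14534 probes and the untreated arrays 13970 and 13873. The single Bgn probe was detected in all 7 arrays although all mice are labelled knockout, with log2 signals of 8.30, 8.26, 8.23, 8.02 and 8.23 in the DHA arrays and 8.70 and 8.39 in the untreated arrays. Whether that probe lies in the deleted stretch is not given, so it does not check the labels. Of 16 hypothalamus marker genes with a probe, 13 passed the filter, among them those of the peptides Pmch, Oxt, Avp and Hcrt, while Crh, Otp and Sim1 did not. This count does not tell regions apart, since 10 of 10 striatum genes and 7 of 9 cortex and hippocampus genes passed too. The log2 signals of Pmch were 14.55 to 14.67 and those of Hcrt 12.16 to 12.75. Some libraries stood apart in markers of neighbouring tissue. The summed signal of 10 striatum genes lay between 13608 and 14597 in the DHA arrays, against 21500 and 14404 in untreated replicates 1 and 3. That of 7 cortex and hippocampus genes was 6030 and 6342 in DHA replicates 2 and 5, and 3437 to 3903 in the other 5 arrays. Markers of meninges and fibroblasts summed to 20964 to 32221 in the DHA arrays and to 15099 and 7699 in the untreated arrays. Pituitary markers (4 of 6 genes passing, Fshb and Lhb not) summed to 1027 and 1620 in DHA replicates 1 and 3. They summed to 98 to 190 in the other DHA arrays and to 105 and 190 in the untreated arrays. The genes differed, with Tshb and Cga at 9.59 and 7.47 log2 in DHA replicate 1. Gh and Prl were lower in DHA replicate 1 (5.61 and 4.79) than in DHA replicate 5 (5.97 and 6.24). The thalamus sum (4 of 7 genes passing, Lef1, Plekhg1 and Synpo2 not) was also highest in DHA replicates 1 and 3, at 4862 and 5261. Prkcd of that list was higher in untreated replicate 1 (9.35 log2) than in DHA replicate 1 (8.78). The choroid plexus sum (5 of 7 genes passing, Aqp1 and Folr1 not) was highest in DHA replicate 1, at 4688. Only Ttr among its genes was highest there, at 11.59 log2. Clic6 and Sostdc1 were highest in untreated replicates 1 and 3, Otx2 and Kl in DHA replicates 3 and 5.

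A probe counted as detected when its detection p, which compares it with the negative controls of its array, was under 0.05. Of the 46 probes, 20 were detected in all 7 arrays, 6 in some arrays and 20 in none. That is 43.5% detected throughout, against 48.7% of all probes. The AMPA subunits were the most completely covered group, with 7 of 9 probes detected in every array and all 4 genes represented. Among kainate subunits Grik1, Grik4 and Grik5 were detected in every array. Of the 5 NMDA subunits with a probe, Grin2a, Grin2b and Grin2d were detected in no array, Grin3b in 1 array (DHA replicate 3) and Grin2c in 4. Among GABA-A subunits Gabra3, Gabrb1, Gabrb2, Gabrg1, Gabrd and Gabre were detected in all arrays, whereas Gabra2, Gabra4, Gabra5, Gabra6, Gabrg3, Gabrq, Gabrr1, Gabrr2 and Gabrr3 were detected in none. Of the metabotropic receptors, Grm7 and Grm8 were detected in every array, Grm4 in 2, and Grm3 and Grm6 in none. The unnormalized signal of the probes detected in no array lay between 128.4 and 173.5 intensity units.

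These figures describe probes rather than genes. For Grik1, 1 probe was detected in all arrays and the other 2 in none, and Gabrb2 and Gabbr1 each had 1 probe detected in all arrays and 1 in none. Snap25 and Nefl, which nearly all neurons express strongly, also had no probe that passed the filter, so an undetected probe gives no level of its transcript. Some receptor genes were not analysed here. The obligate NMDA subunit Grin1 and the GABA-B subunit Gabbr2 are among them, and Gria2 was therefore the only one of the family's 2 chosen marker genes with a value. The Grid2ip probe was detected in no array.

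**Figure D1:**
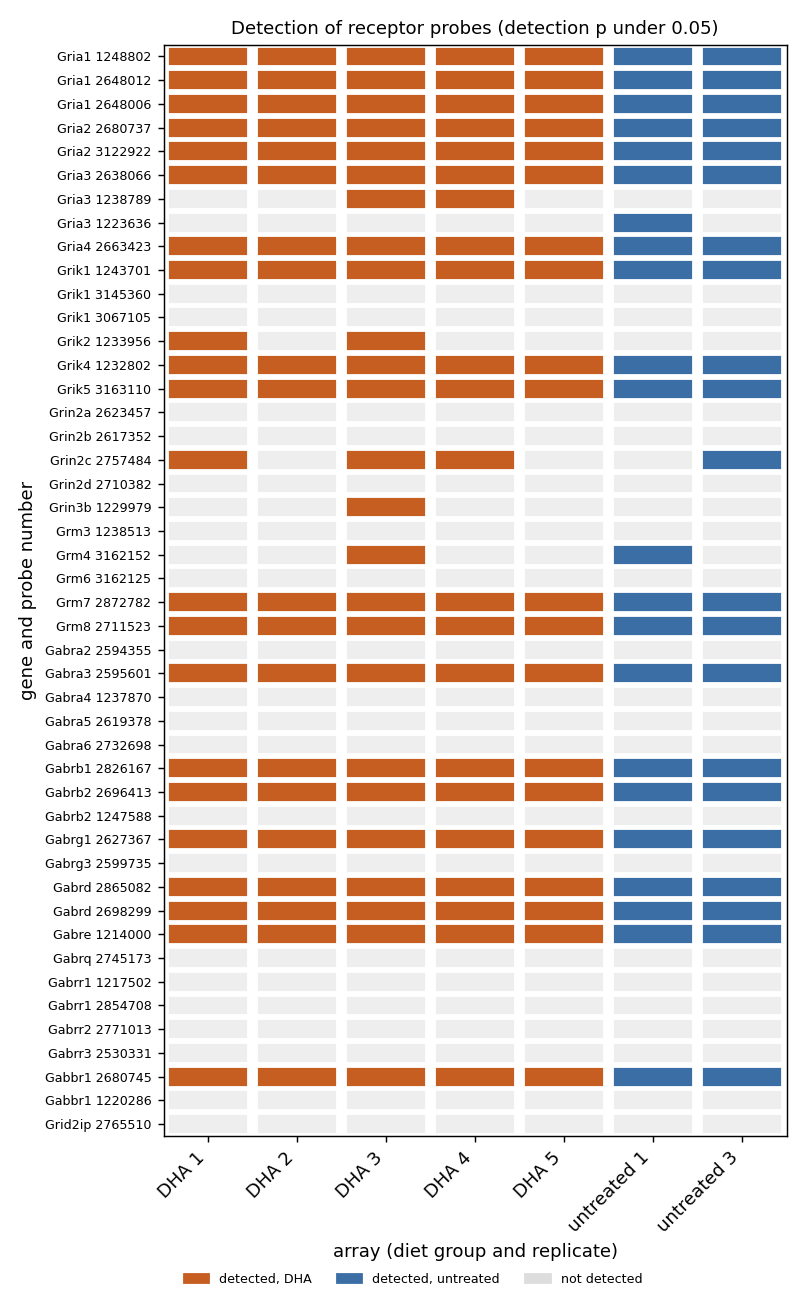
Detection of the 46 probes (rows, gene and probe number) in each array (columns, 5 DHA arrays left of 2 untreated arrays). A coloured cell marks a detection p under 0.05; 20 rows are filled in all 7 arrays and 20 are empty.

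The comparison asks whether the subunit transcripts differed between knockout mice fed the oils and untreated knockout mice. No receptor probe passed the test. Probes detected in at least 2 arrays were fitted with limma, which covered 24 receptor probes for 19 genes, and none had a Benjamini-Hochberg adjusted p under 0.05 (the smallest was 0.36). Among all 15284 tested probes 0 (0%) passed by the same rule, and 1565 (10.2%) had an unadjusted p under 0.05. At that unadjusted p under 0.05 there was 1 higher receptor probe (Gabre) and there were 2 lower ones (Gria1 and Grm4), or 4.17% and 8.33% of 24, against 5.17% higher and 5.07% lower over all tested probes. All 5 DHA arrays lay above both untreated arrays for 2 receptor probes (Gabre and Gabbr1) and below both for 2 (Gria1 and Gabrb2), where 7.89% and 9.06% of all tested probes did so. The receptor counts are therefore near the background.

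Over the 24 probes the median log2 fold change, DHA minus untreated, was -0.06, beside -0.01 over all tested probes. Of these 24, 2 were detected in no untreated array and have only a bound there. Over the 22 probes detected in both groups the median was -0.07, with 8 above and 14 below 0, where 47% of all tested probes were above 0. The 16 tested glutamate receptor probes had 5 above and 11 below 0. Among those 5 are the 2 that no untreated array detected (Gria3 ILMN_1238789 and Grik2). The 8 tested GABA receptor probes had 5 above and 3 below. The medians of the glutamate and GABA receptor probes were -0.07 and 0.04. The array spread of the median over the receptor probes was 0.06 (SD within groups), as large as the median itself.

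**Figure D2:**
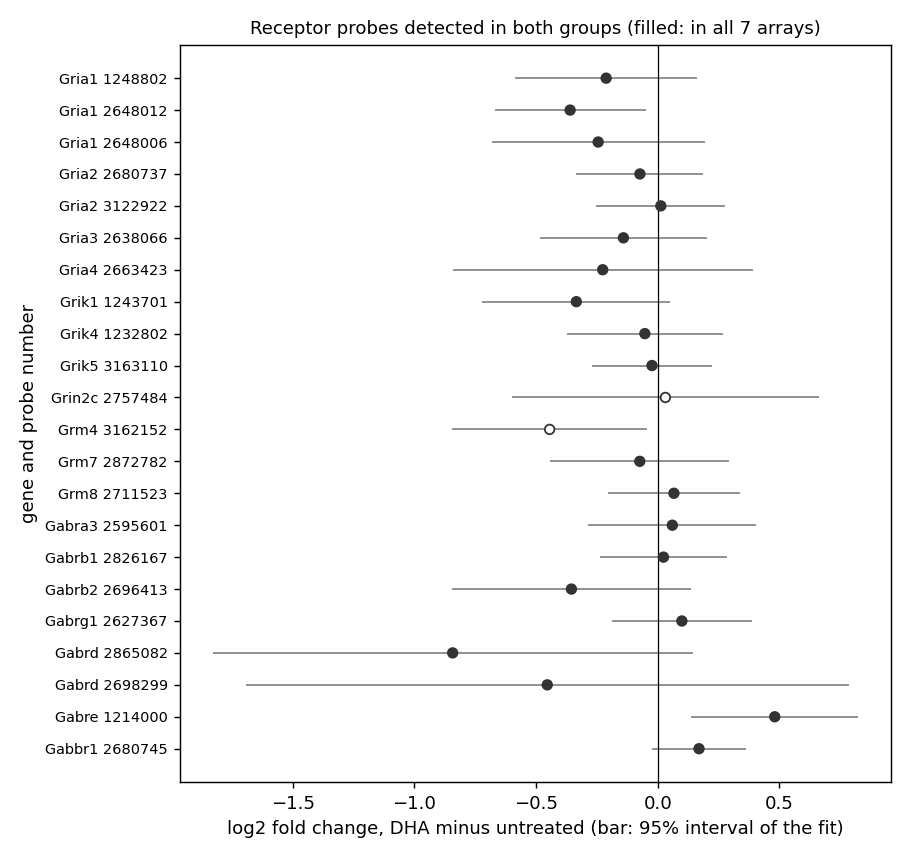
Log2 fold change, DHA minus untreated (x axis), of the 22 receptor probes detected in both groups (rows), with the 95% interval of the limma fit. Most intervals span 0; those of Gabre, of 1 Gria1 probe and of Grm4 do not, and those of the 2 Gabrd probes are the widest.

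**Figure D3:**
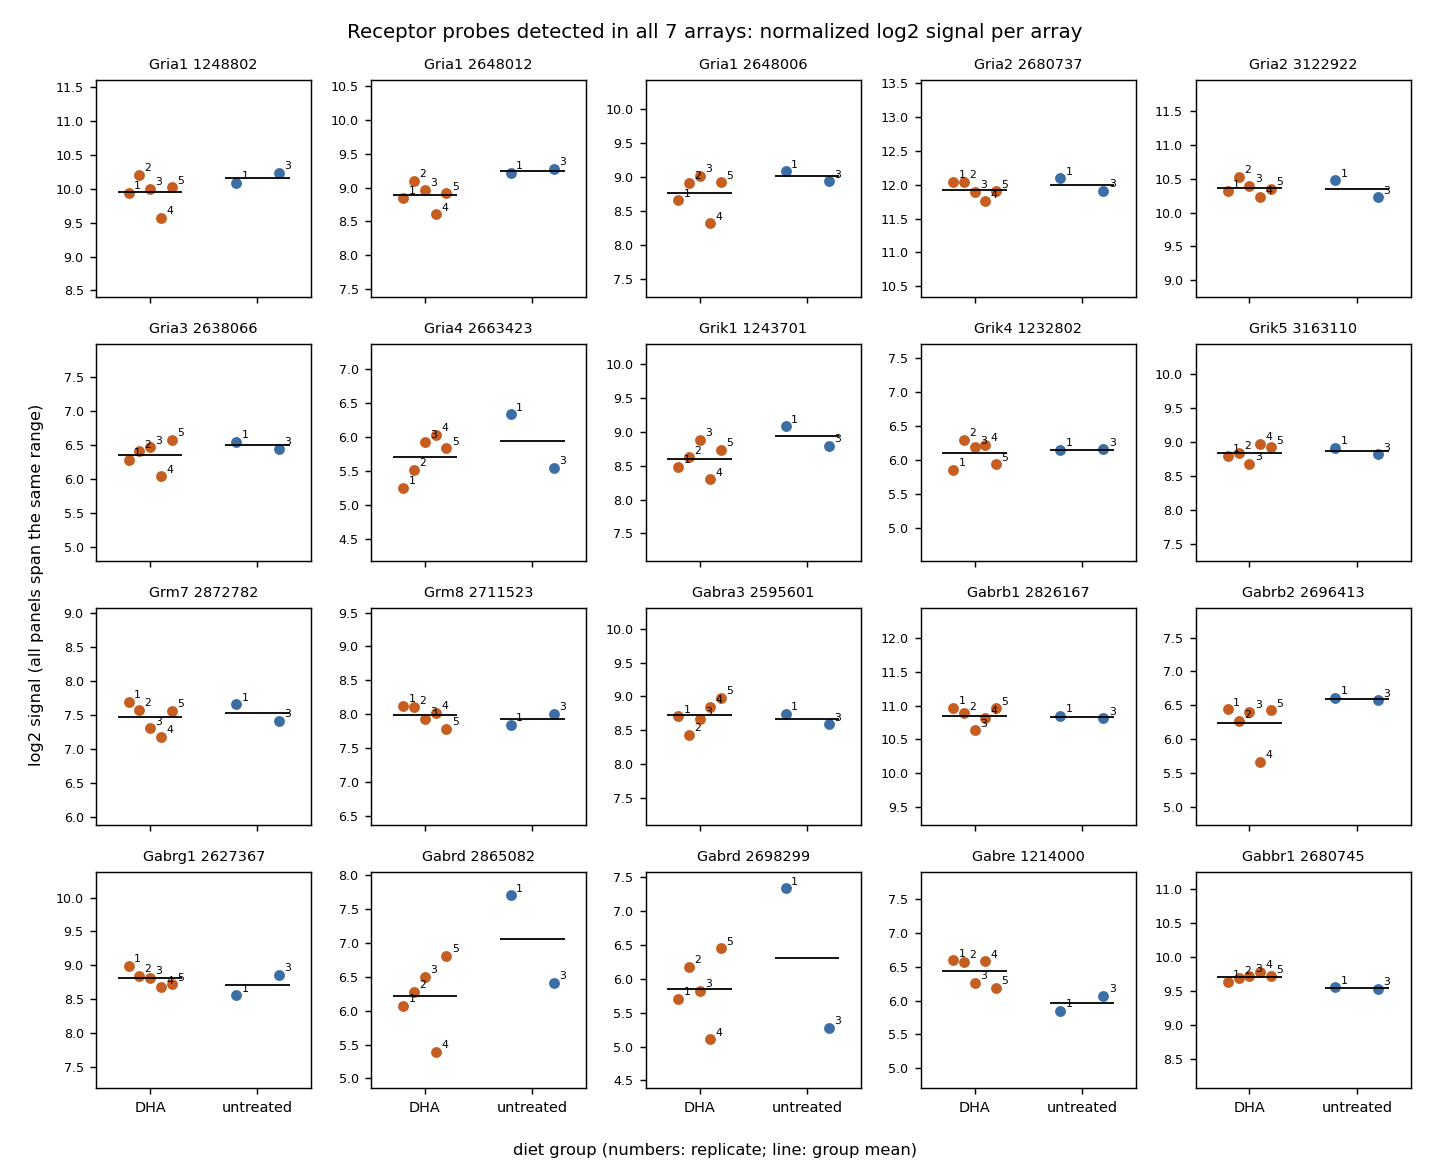
Normalized log2 signal (y axis) of the 20 receptor probes detected in all 7 arrays, 1 panel a probe, with the 5 DHA arrays left of the 2 untreated arrays. Numbers are replicates and lines group means; Gabre and Gabbr1 show all DHA points above both untreated points, and DHA replicate 4 is the lowest point in 10 panels.

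AMPA receptors are built from Gria1 to Gria4. Gria2, whose edited form keeps calcium out of the channel, has 2 probes. On ILMN_2680737 it had log2 signals of 12.04, 12.04, 11.90, 11.76 and 11.90 in DHA replicates 1 to 5 and 12.10 and 11.91 in untreated replicates 1 and 3. The other probe, ILMN_3122922, gave 10.32, 10.52, 10.40, 10.23 and 10.35 with DHA and 10.48 and 10.22 without. The groups overlapped on both probes. The log2 fold changes were -0.07 (95% interval -0.33 to 0.19) and 0.01 (-0.25 to 0.28), with limma adjusted p of 0.846 and 0.976.

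Gria1, the subunit inserted during activity-dependent strengthening of synapses, was below 0 on all 3 of its probes, and none passed. On ILMN_2648012 the log2 signals were 8.85, 9.10, 8.97, 8.61 and 8.92 in the DHA arrays and 9.22 and 9.27 in the untreated arrays. On this probe every DHA array was below both untreated arrays, by a log2 fold change of -0.36 (SE 0.13, limma adjusted p 0.441). On ILMN_1248802 the values were 9.94, 10.20, 10.003, 9.57 and 10.02 with DHA against 10.08 and 10.24, and on ILMN_2648006 they were 8.66, 8.92, 9.02, 8.32 and 8.92 against 9.09 and 8.94. The groups overlapped on both, and the log2 fold changes were -0.21 (SE 0.16) and -0.24 (SE 0.19). DHA replicate 4 was the lowest array on all 3 probes. Without it the log2 fold changes were -0.29, -0.12 and -0.13, in the order of the probes above. The 3 probes measure the same gene in the same arrays and are not independent of one another.

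Gria3 and Gria4 overlapped between groups. The Gria3 probe detected in all arrays, ILMN_2638066, differed by -0.14 (SE 0.15, limma adjusted p 0.769). Of its other probes, 1 was detected in 2 DHA arrays and no untreated array, which allows no fold, and 1 only in untreated replicate 1. Gria4, a subunit with fast channel kinetics, had log2 signals between 5.25 and 6.03 in the DHA arrays and of 6.33 and 5.54 in untreated replicates 1 and 3. Its log2 fold change of -0.23 (SE 0.27, limma adjusted p 0.796) rested on untreated replicate 1, the array high in striatum markers. Without that array the log2 fold change was 0.17. The part of striatal tissue in the Gria4 signal was not tested.

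Kainate receptors modulate transmitter release and excitability on both sides of the synapse. Grik1, a channel-forming subunit, gave log2 signals of 8.48, 8.62, 8.88, 8.30 and 8.74 in the DHA arrays and 9.08 and 8.80 in the untreated arrays (ILMN_1243701). DHA replicate 3 lay between the untreated arrays and the other DHA arrays below both. The log2 fold change was -0.33 (SE 0.17) with a limma adjusted p of 0.533, and it was -0.19 without untreated replicate 1. The high-affinity subunits Grik4 and Grik5, which form channels only together with Grik1 to Grik3, differed by -0.05 (95% interval -0.37 to 0.27) and -0.02 (-0.27 to 0.22). Grik2 was detected in DHA replicates 1 and 3 only, the arrays with the highest pituitary and thalamus marker sums, and is given no fold. The part of that tissue in its detection was not tested.

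The single tested NMDA probe was that of Grin2c, the subunit best known from the cerebellum. It was detected in 3 of 5 DHA arrays and 1 of 2 untreated arrays, and its log2 signals were 5.59, 4.84, 5.66, 5.24 and 4.72 against 5.06 and 5.29. The groups overlapped throughout, and the log2 fold change was 0.03 with a 95% interval of -0.60 to 0.66. Its highest values were those of DHA replicates 1 and 3, the arrays with the highest pituitary and thalamus marker sums. The part of that tissue was not tested. Without DHA replicates 2 and 5 the log2 fold change was 0.32.

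Among metabotropic receptors, all 3 tested genes belong to group III, which lowers transmitter release from presynaptic terminals. Grm7 differed by -0.07 (95% interval -0.44 to 0.29) and Grm8 by 0.07 (-0.20 to 0.34), both with overlapping groups. The Grm4 probe (ILMN_3162152) was close to background, detected in 1 of 5 DHA arrays and 1 of 2 untreated arrays. Its log2 signals were 4.73, 4.80, 5.18, 4.90 and 4.69 in the DHA arrays and 5.54 and 5.07 in the untreated arrays. The log2 fold change of -0.44 (SE 0.17, limma adjusted p 0.454) became -0.12 on the authors' normalized values, in which background had not been subtracted.

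The alpha, beta and gamma subunits make up the core of most GABA-A channels. Gabra3, an alpha subunit found in monoaminergic and hypothalamic neurons, had log2 signals of 8.71, 8.43, 8.67, 8.85 and 8.98 in the DHA arrays and 8.74 and 8.59 in the untreated arrays, a log2 fold change of 0.06 (95% interval -0.28 to 0.41). Gabrb1 differed by 0.02 (-0.24 to 0.28). For Gabrg1, the gamma subunit typical of hypothalamus and amygdala, the values were 8.99, 8.85, 8.82, 8.68 and 8.72 with DHA and 8.56 and 8.86 without, a log2 fold change of 0.10 (-0.19 to 0.39). In all 3 genes the groups overlapped.

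Gabrb2, the beta subunit of the most common synaptic receptor of the forebrain, had log2 signals of 6.44, 6.27, 6.41, 5.66 and 6.42 in the DHA arrays and 6.61 and 6.57 in the untreated arrays (ILMN_2696413). All DHA arrays were below both untreated arrays, DHA replicate 4 by far the most. The log2 fold change was -0.35 (SE 0.21, limma adjusted p 0.594). It was -0.21 without DHA replicate 4 and -0.13 on the authors' normalized values.

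Gabrd, the subunit of extrasynaptic receptors that carry tonic inhibition, varied more between arrays than any other receptor subunit detected throughout. Its log2 signals on ILMN_2865082 were 6.07, 6.28, 6.50, 5.39 and 6.81 in the DHA arrays and 7.70 and 6.41 in untreated replicates 1 and 3. On ILMN_2698299 they were 5.71, 6.18, 5.82, 5.11 and 6.45 with DHA and 7.33 and 5.28 without. On both probes untreated replicate 1 was the highest array, DHA replicate 5 the next and DHA replicate 4 the lowest. The SD over the 7 arrays was 0.71 and 0.76 log2 on the 2 probes, larger than that of 99.2% and 99.4% of all probes detected in every array, whose median SD was 0.16.

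The log2 fold changes of Gabrd were -0.84 (SE 0.43, limma adjusted p 0.534) and -0.45 (SE 0.54, adjusted p 0.797), and the groups overlapped. Untreated replicate 1 decided these values. Without it they were -0.20 and 0.58, of opposite sign, and without untreated replicate 3 they were -1.49 and -1.48. On the authors' normalized values they were -0.38 and -0.22. The array with the highest Gabrd was also the array with the highest striatum markers, all 10 of which passed the filter, as given above. DHA replicates 2 and 5, the arrays high in cortex and hippocampus markers (7 of 9 genes passing, Neurod6 and Rtn4rl2 not), held the top 2 DHA values of Gabrd on ILMN_2698299 and the third and top values on ILMN_2865082. Without both of them the log2 fold changes of Gabrd were -1.07 on ILMN_2865082 and -0.76 on ILMN_2698299. The part of neighbouring tissue in the Gabrd signal was not tested.

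**Figure D4:**
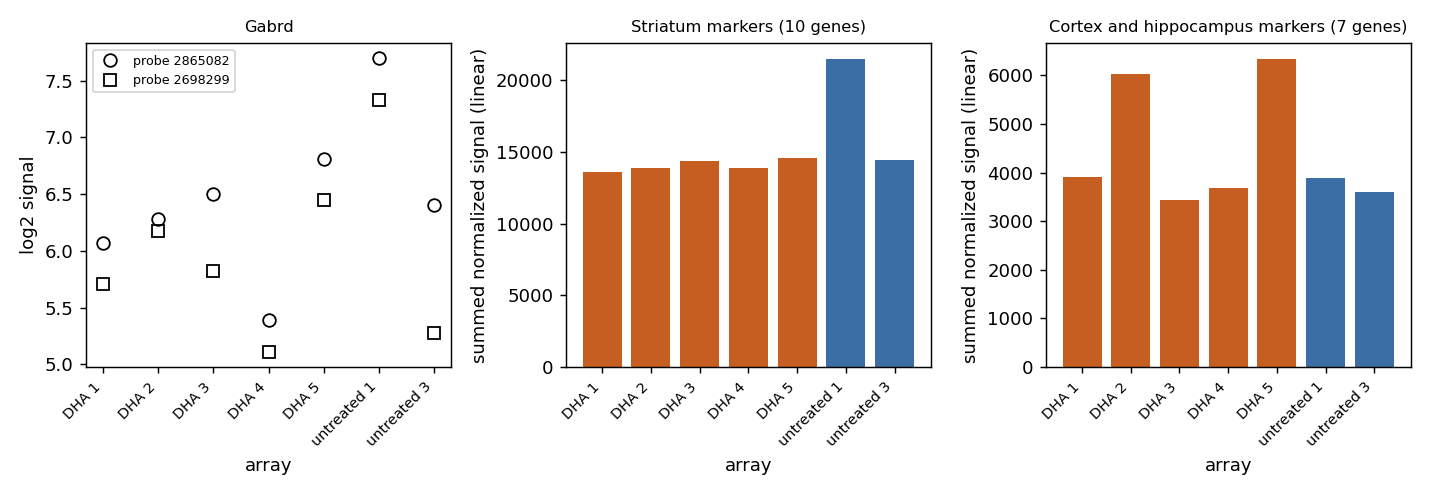
Log2 signal of the 2 Gabrd probes (left) and summed linear signal of 10 striatum genes (middle) and of 7 cortex and hippocampus genes (right) in each array, DHA arrays (orange) left of untreated arrays (blue). Untreated replicate 1 is highest for both Gabrd probes and for the striatum sum, and DHA replicates 2 and 5 for the cortex and hippocampus sum.

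Gabre, the epsilon subunit, is concentrated in the hypothalamus and in aminergic nuclei and makes receptors insensitive to benzodiazepines. Its log2 signals were 6.59, 6.57, 6.26, 6.58 and 6.19 in the DHA arrays and 5.85 and 6.07 in the untreated arrays (ILMN_1214000), detected in all 7. Every DHA array was above both untreated arrays. The log2 fold change of 0.48 (SE 0.15, 95% interval 0.14 to 0.82) had the smallest p of the family, with a limma adjusted p of 0.36, and did not pass. On the authors' normalized values, which carry the background, it was 0.17.

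Gabbr1, the GABA-B subunit that binds the transmitter, had log2 signals of 9.63, 9.69, 9.73, 9.78 and 9.71 in the DHA arrays and 9.55 and 9.53 in the untreated arrays (ILMN_2680745). Here too all DHA arrays were above both untreated arrays. The spread with DHA, 0.05 (SD, n = 5), was the smallest among the 20 probes detected in every array, and the log2 fold change was 0.17 (SE 0.08, limma adjusted p 0.533). Beside Gabre and Gabbr1, 13 of 14 meninges and fibroblast genes and 9 of 10 endothelium and pericyte genes had a log2 fold change above 0. The meningeal gene below 0 was Bgn (-0.34), the gene knocked out. The counts above 0 were 8 of 10 for astrocytes, 6 of 11 for oligodendrocytes, 3 of 8 for microglia and 2 of 8 for neurons. Over all tested probes 47% were above 0. Astrocyte markers summed to 57296 to 61177 in the DHA arrays and 55988 and 55448 in the untreated arrays. Col1a2 was the meningeal marker that did not pass the filter, and endothelial and pericyte markers summed to 10830 to 15265 in the DHA arrays and 9623 and 6521 in the untreated arrays. The part of any of these cell types in the Gabre and Gabbr1 signals was not tested. In whole tissue, fewer cells of a type and less RNA per cell cannot be told apart.

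The promoter windows of Gabre, Gabbr1 and Gabrb2 are shown because these 3 genes, with Gria1, were those among the tested probes whose diet groups did not overlap. The sequences are RefSeq's, build GRCm38.p6, from 250 bases before to 50 after the annotated start, 5′ to 3′. Capitals mark a GC box (GGGCGG on either strand) or a TATA box (TATAAA on either strand).
Gabre (chrX:72274672-72274971, minus strand): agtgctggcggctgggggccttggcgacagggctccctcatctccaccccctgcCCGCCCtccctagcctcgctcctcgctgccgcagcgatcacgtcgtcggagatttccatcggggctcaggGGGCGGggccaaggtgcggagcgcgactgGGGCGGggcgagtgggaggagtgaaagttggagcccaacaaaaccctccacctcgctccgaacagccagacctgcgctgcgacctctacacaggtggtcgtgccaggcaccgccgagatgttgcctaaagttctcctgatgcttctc
Gabbr1 (chr17:37045716-37046015, plus strand): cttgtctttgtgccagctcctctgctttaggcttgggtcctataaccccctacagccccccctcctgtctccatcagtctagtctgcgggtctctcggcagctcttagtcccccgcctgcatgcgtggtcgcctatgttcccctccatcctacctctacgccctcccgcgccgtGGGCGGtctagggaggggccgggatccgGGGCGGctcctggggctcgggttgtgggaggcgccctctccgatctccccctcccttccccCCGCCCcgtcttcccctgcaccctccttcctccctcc
Gabrb2 (chr11:42420190-42420489, plus strand): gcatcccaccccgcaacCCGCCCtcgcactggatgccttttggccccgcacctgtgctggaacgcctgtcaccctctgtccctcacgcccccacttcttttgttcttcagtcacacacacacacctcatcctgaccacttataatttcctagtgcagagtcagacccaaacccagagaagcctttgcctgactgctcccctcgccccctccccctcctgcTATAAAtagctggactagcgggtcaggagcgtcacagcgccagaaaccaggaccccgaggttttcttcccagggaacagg
The Gabrb2 window is the most upstream of 3 annotated for the gene. The Gabre and Gabbr1 windows each hold 3 GC boxes and no TATA box, and have a GC content of 66.7% and 67.3%. The Gabrb2 window shown holds 1 GC box and 1 TATA box at a GC content of 59.0%. The Gabrb2 windows that start at 42420524 and 42420951 hold neither motif, at a GC content of 54.7% and 41.0%.

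A window was found for 28 of the 35 member genes, 36 windows in all, and not for Gabrd, Gria1, Gria3, Grik1, Grin2a, Grin2b and Grm4. The GC box stood in 17 of the 36 windows, against 35.7% of all 32851 windows, and the TATA box in 4, against 13.6%. A cyclic AMP response element (TGACGTCA, either strand, 1.79% of all windows) and an E-box of the clock type (CACGTG, 7.15%) were in none of them. The counts take each annotated start of a gene as a window of its own. The windows with a TATA box are those of Gabra3, Gabrb2 and Grin3b. Windows of Grid2ip, which is no receptor subunit, are among those with a GC box. These matches describe the letters of the windows only.

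GABA-A genes lie in clusters in the RefSeq annotation of GRCm38.p6, and neighbours differed in detection in some of them. Of Gabrg1, Gabra2, Gabra4 and Gabrb1 on chromosome 5, the outer 2, Gabrg1 and Gabrb1, were detected in all arrays and the inner 2 in none. Of Gabre, Gabra3 and Gabrq on chromosome X, Gabre and Gabra3 were detected in all arrays, with log2 fold changes of 0.48 and 0.06, and Gabrq in none. On chromosome 11, Gabrb2 was detected in all arrays on 1 probe and Gabra6 in none. Neighbours did not differ on chromosome 7, where Gabrg3 and Gabra5 were detected in no array, or on chromosome 4, where Gabrr1 and Gabrr2 were detected in none.

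Several subunits were lowest or highest in the same array. Of the 20 probes detected in all arrays, DHA replicate 4 was the lowest array for 10, namely all 3 of Gria1, both of Gabrd, and those of Gria2 (ILMN_2680737), Gria3, Grik1, Grm7 and Gabrb2. Over all 12521 probes detected in every array it was lowest for 16.8%. It was at the same time the highest array for Grik5 and Gabbr1. Untreated replicate 1 was highest for 7 of 20 (15.4% over all probes), among them Gria4, Grik1 and both Gabrd probes. DHA replicate 1 was highest for 5, those of Grm7, Grm8, Gabrb1, Gabrg1 and Gabre (10.2% over all probes). The summed signal of 8 neuron markers was 69006 in DHA replicate 4, 68644 to 69610 in the other DHA arrays and 71513 and 70135 in the untreated arrays. Their mean log2 signal was 11.767 in DHA replicate 4, the lowest, next to 11.768 in DHA replicate 5. Rbfox3, which encodes the neuronal nuclear protein NeuN, was the only one of these 8 markers that was lowest in DHA replicate 4. It was at 12.04 there, against 12.31 to 12.53 in the other DHA arrays and 12.60 and 12.45 in the untreated arrays. Syp was higher in DHA replicate 4 (14.60) than in any other DHA array. The part of neuron content in these extremes was not tested. Genes of a receptor family share cells, so these probes are not independent.

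**Figure D5:**
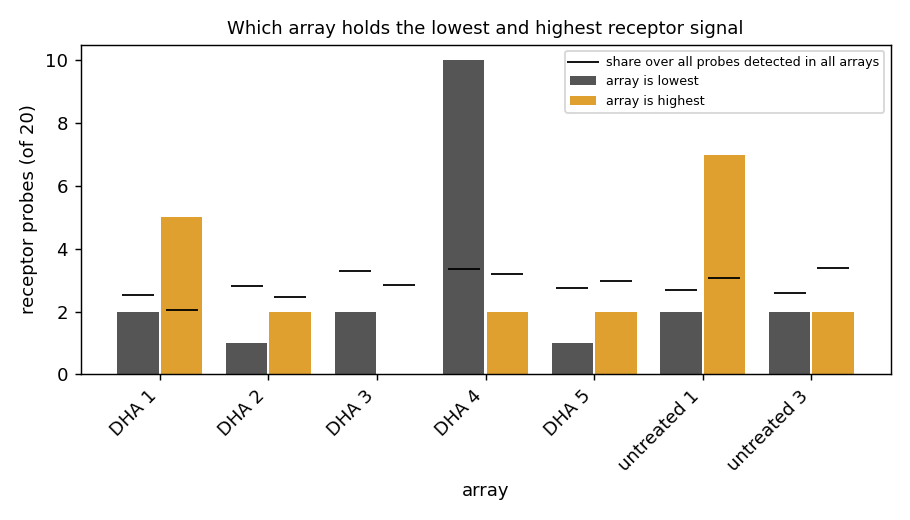
Number of the 20 receptor probes detected in all arrays (y axis) for which each array (x axis, DHA arrays left of untreated arrays) is the lowest or the highest. Black dashes give the number that the array's share over all 12521 such probes would make of 20; DHA replicate 4 is lowest for 10 probes.

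The partners of these receptors were examined from lists of auxiliary subunits, anchoring and trafficking proteins, and transmitter synthesis and transport. None of their 18, 26 and 22 tested probes passed at an adjusted p under 0.05. At an unadjusted p under 0.05 the auxiliary list had 0 higher and 1 lower (5.56%), the anchoring list 0 higher and 2 lower (7.69%), and the transport list 2 higher (9.09%) and 0 lower, where 5.17% of all tested probes were higher and 5.07% lower. The medians were -0.01, -0.03 and 0.06 log2.

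Among auxiliary proteins, Cacng5, a TARP that escorts AMPA receptors, differed by -0.29 (SE 0.13, limma adjusted p 0.484) on ILMN_2725698 and by -0.12 and -0.07 on its other probes. Kctd12b and Kctd12, of the GABA-B receptor's auxiliary family, differed by 0.24 (SE 0.13) and 0.30 (SE 0.18), and the other 2 probes of Kctd12b were detected in some arrays only. Among anchoring proteins, Pick1, which binds Gria2 and takes AMPA receptors into the cell, differed by -0.34 (SE 0.11, adjusted p 0.405) on ILMN_1246720, with -0.15 and 0.25 on its other probes. Gabarapl1, of the GABA-A receptor-associated protein family, differed by -0.22 (SE 0.09), and the membrane fusion ATPase Nsf, which also binds Gria2, by 0.17 (SE 0.10).

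Among transport genes the largest difference was that of Slc6a13, a GABA transporter known from the meninges. It had log2 signals of 9.22, 10.19, 9.87, 9.63 and 9.81 in the DHA arrays and 8.59 and 6.98 in the untreated arrays, and differed by 1.96 (SE 0.41, limma adjusted p 0.215). It is itself a member of the meninges and fibroblast marker list, whose sum was higher in every DHA array than in both untreated arrays. The amino acid transporters Slc38a2 and Slc38a3, which carry glutamine, differed by 0.38 (SE 0.11) and 0.25 (SE 0.11), although a further Slc38a2 probe differed by 0.03. The enzymes and vesicular transporters that define GABA and hypothalamic glutamate neurons had log2 fold changes close to 0, with Gad1 at -0.02 and 0.01 on its 2 probes, Slc32a1 at -0.03 and Slc17a6 at 0.06. Slc17a7, named after its values were seen, is a vesicular glutamate transporter of cortical neurons. Its log2 signals were 6.34, 9.64, 7.23, 6.10 and 9.98 in the DHA arrays and 6.34 and 5.76 in the untreated arrays, so that DHA replicates 2 and 5 stood above all others.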

How the data were processed

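Hypothalamus RNA was hybridised to Illumina bead arrays with biotin label, per the labels' protocols. Per the file headers, the deposited unnormalized table holds, for each probe and array, an intensity and a p-value of detection. The authors' normalized table is also on the intensity scale, and lumi 2.10.0 with R 2.15.0 appears in the submitters' processing notes, which here give no method. In that table the column of DHA replicate 5 equals its unnormalized signals. The unnormalized table has 2 further per-sample columns that match no sample and were not used.

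Signals were corrected by normexp from the detection p-values (offset 16), log2-transformed and quantile-normalized, which removes differences in total RNA and shrinks folds of dim probes (R 4.3.3, limma 3.58.1; the steps were tested on simulated data). Probes detected (p under 0.05) on 2 or more arrays were fitted with lmFit and eBayes, two-sided, adjusted over 15284 probes at 0.05. Symbols are those of the platform annotation. Moderated 95% intervals come from the fit.

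Members and lists were chosen with earlier results of these data known. Named genes are Gria2 (Grin1 has no value), the smallest p of each subfamily, probes whose groups do not overlap, and 3 probes of each partner list; other members are given by name, range or count. Alternatives were the authors' values, other background corrections and scalings, other filters, variance models, weights for arrays, the replicate block, the brightest probe and leaving out arrays. Leaving out both DHA arrays high in cortex markers was added after seeing the data.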

Additional observations from a re-analysis of the deposited data

Results flagged for a closer look

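Among the 24 tested receptor probes, 1 had a DHA array far from the other 4 by Dixon's criterion. This was Gabrb2 (ILMN_2696413), at 5.66 log2 in DHA replicate 4, where the gap to the nearest array was 0.772 of the range of the 5 arrays. Chance flags about 1 in 20 such groups.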

How the results depend on the processing

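No receptor probe (0) passed the adjusted threshold under any of the alternatives, the smallest adjusted p among probes detected in both groups being 0.272, and 0 partner probes passed. Over all probes, 12 passed with the authors' values and 12 with uncorrected signals, 1 with normexp and an offset of 50, 52 with an intensity trend and robust variances, and 0 to 3 when arrays were left out in turn. Receptor probes at an unadjusted p under 0.05 numbered 2 higher and 3 lower with the authors' values, 2 higher and 3 lower with uncorrected signals, 1 lower with a detection p under 0.01 in all 7 arrays, 1 lower with the brightest probe of each gene, and 1 lower without DHA replicates 2 and 5. Leaving out arrays gave 0 to 1 higher and 0 to 3 lower; 0 in both directions remained without untreated replicate 1. The receptor median lay between -0.12 (without untreated replicate 3) and -0.01 (without untreated replicate 1). With the replicate block, which the labels do not support as a pairing (deviations of the same-numbered arrays correlated at 0.003 and 0.034), 2 were higher and 0 lower. These were Grin2c (0.45) and Grik2, which no untreated array detected, while Gabre (0.47) had an unadjusted limma p of 0.0731. The sign of Gabrb1 turned under the block (-0.030). Without DHA replicates 2 and 5 the values of Gabrb1 and Gria2 (ILMN_3122922) turned to -0.024 and -0.036. Of 367 single values of the 22 probes detected in both groups, 21 turned sign, in 12 probes. Leaving out arrays, the log2 fold change ranged from -0.017 to 0.14 for Gabra3, -0.0035 to 0.079 for Gabrb1, -0.052 to 0.25 for Gabrg1, -1.48 to 0.58 for Gabrd (ILMN_2698299), -0.17 to 0.021 and -0.11 to 0.14 for Gria2, -0.62 to 0.17 for Gria4, -0.10 to 0.008 for Grik4, -0.071 to 0.025 for Grik5, -0.085 to 0.15 for Grin2c, -0.19 to 0.047 for Grm7 and -0.011 to 0.14 for Grm8. With 1 untreated array left, that array is assumed to vary like the others. Grm4 was not tested without untreated replicate 1 or DHA replicate 3. The causes were not tested. Dim probes, such as those of Grm4 and Grin2c, are limited by their signal over background.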
